A study of Mus musculus with 5 samples.

Results

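The tendon and ligament cells described here were 12111 of the 82516 cells kept from the growth plate preparations of 5 mouse pups, and they were chosen by the transcripts of 5 genes. A member held at least 3 unique molecular identifiers (UMIs, each standing for 1 captured mRNA molecule) of Tnmd, at least 200 Col1a1 UMIs per 10000 UMIs of the cell, fewer than 200 Col2a1 and 50 Prg4 UMIs per 10000, and no Ptprc UMI. Cells were kept when they had 200 to 6000 detected genes and at most 10% mitochondrial UMIs, which left 82516 of the 84382 cells in the files. The members numbered 2489 in WT pup 1, 2069 in WT pup 2, 2915 in mutant pup 3, 3571 in mutant pup 4 and 1067 in mutant pup 5.

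The study took the proximal tibia and distal femur of littermates labelled C57BL/6J, 2 of them wild type (WT) and 3 mutant by their labels, and sequenced 1 library per pup. The labels give the age as postnatal day 5, whereas the design text gives day 3. Mutant pups carried 1 conditional Trpv4 allele encoding p.R594H that is switched on by Col2a1-Cre, a recombinase driven in chondrocytes, from a line whose background of origin included SJL. The labels do not say which Cre or unrecombined alleles the WT littermates carried, and UMI counts do not show whether a tendon cell had recombined the allele. The joints were cleaned of tendon and ligament by dissection and collagenase I before the cells were released. How far that cleaning set the number of members in each pup was not tested.

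Tendons and ligaments are cords of parallel type I collagen fibrils laid down by fibroblasts called tenocytes and ligament cells. Scleraxis (Scx), a basic helix-loop-helix factor, marks their progenitors, and the homeobox factor Mohawk (Mkx) acts in their maturation. Tenomodulin (Tnmd) is a transmembrane glycoprotein found mainly in mature tendon and ligament cells. Small leucine-rich proteoglycans such as fibromodulin (Fmod) and keratocan (Kera) bind collagen and regulate how fibrils grow, and thrombospondin 4 (Thbs4) is a matrix protein of tendon and muscle attachment. At its bony end a tendon grades through fibrocartilage into mineralized tissue, where hedgehog signalling is active.

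The libraries held 117746735 to 183322632 UMIs, and members had a median of 8352, 7776, 6504, 6009 and 6144 UMIs in pups 1 to 5. The 2 WT pups were the most deeply sequenced of the 5. Barcodes were shared by 56 pairs of cells from different pups, of which 1 pair was among members. Xist, the RNA of the inactive X chromosome, stood at 0, 0, 459, 464 and 0.144 CPM (UMIs per 1000000 UMIs of the group) in the members of pups 1 to 5, and the Y-linked gene Ddx3y at 114, 120, 0.925, 0.482 and 111 CPM. Mutant pups 3 and 4 therefore differed from both WT pups in these genes, and for those pups genotype cannot be told apart from them.

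Tnmd, the gene that chose the cells, is on the plus strand of chromosome X, from 133850980 to 133865577 (GRCm38, the build the labels call mm10). Its median count in a member was 21, 17, 13, 15 and 11 UMIs in pups 1 to 5, and the highest count in 1 cell ranged from 86 to 209. Near the limit, 690 cells of the Col1a1-rich, Col2a1-poor population had exactly 3 Tnmd UMIs, at median values of 4.01 to 6.26 per 10000 by pup, and 910 cells with exactly 2 UMIs, at 2.78 to 4.20 per 10000, fell outside. In that population of 25757 cells, 11341 had none. Col1a1 and Col1a2, the chains of type I collagen, together made up 20.005% to 26.1% of the members' UMIs, against 10.8% to 14.5% in perichondrial-type cells. Col1a1 was part of the rule, so this is a description.

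Markers other than those of the rule were read to check the label. Scx (chromosome 15, 76457452 to 76459458, plus strand) stood at 47.7, 63.6, 57.4, 63.8 and 56.0 CPM in the members of pups 1 to 5, at 14.3 to 26.9 CPM in perichondrial-type cells and at 1.81 to 2.67 CPM in chondrocyte-type cells. The lowest member value was above the highest of those comparison values. Kera (chromosome 10, 97606879 to 97613692, plus strand) stood at 771, 802, 556, 1192 and 481 CPM in members, against 45.9 to 83.2 CPM in perichondrial-type cells. Mutant pup 4 had the most Kera and mutant pup 5 the least.

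Fgf9 (chromosome 14, 58070547 to 58112720, plus strand), a secreted growth factor, stood at 22.4, 27.1, 20.2, 18.4 and 23.4 CPM in members and at 4.36 to 11.4 CPM in perichondrial-type cells. Mkx ranged from 75.2 to 117 CPM in members and from 21.5 to 42.4 CPM in perichondrial-type cells. Thbs4 (chromosome 13, 92751590 to 92794818, minus strand) stood at 1103, 1257, 1144, 1122 and 1152 CPM in members, but at 1683 to 2271 CPM in the fibrocartilage-like cells, which were themselves chosen on Thbs4 and Cilp. Fmod did not set members apart, with 4050 to 4755 CPM in members and 4305 to 5282 CPM in Prg4-high cells. The marker levels are drawn for each pup and cell group. Scx, Thbs4, Kera and Fgf9 had been named together with the rule with earlier results of these data known, so their high levels are not independent evidence for the label.

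**Figure D1:**
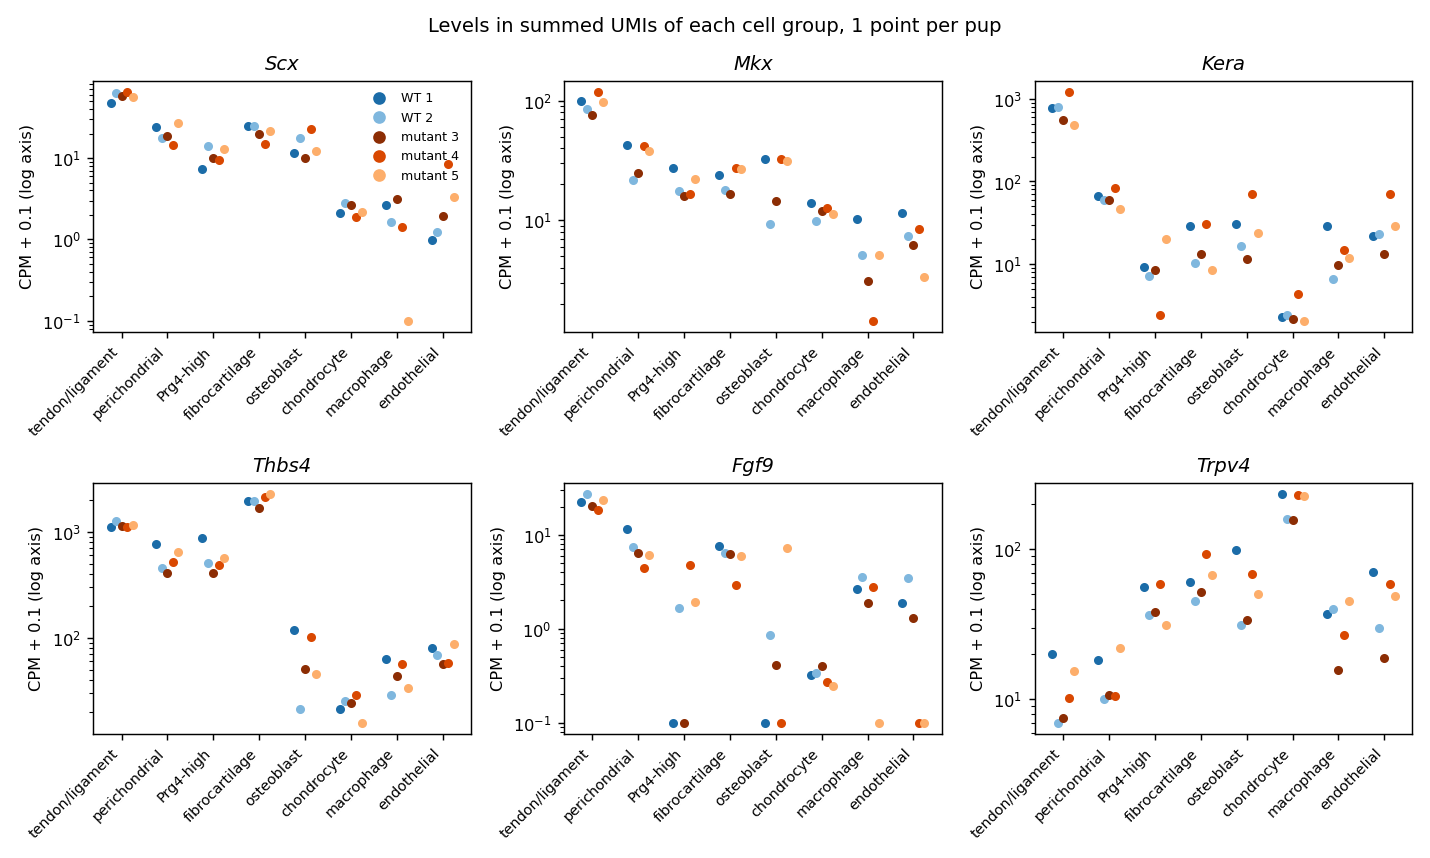
CPM of 6 genes (0.1 added, log axis) in the summed UMIs of 8 cell groups, with 1 point per pup. Scx, Mkx, Kera and Fgf9 were higher in tendon and ligament cells than in any other group in each pup, Thbs4 was highest in fibrocartilage-like cells, which were chosen on it, and Trpv4 was highest in chondrocyte-type cells at 158 to 233 CPM.

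Single cells were thinned to 3000 UMIs to compare detection at equal depth. At least 1 of Scx, Kera, Thbs4 and Fgf9 was then seen in 85.3%, 82.2%, 77.2%, 86.9% and 81.7% of the members of pups 1 to 5. The same share was 36.4% to 55.8% in perichondrial-type cells and 94.7% to 97.3% in fibrocartilage-like cells, above members in every pup and chosen on Thbs4. In groups of other lineages it was 4.69% to 10.6% of macrophage-type, 8.29% to 17.2% of endothelial-type and 6.58% to 23.9% of osteoblast-type cells. The endothelial-type and osteoblast-type groups themselves included members. These were 8 of 39 osteoblast-type cells in WT pup 1, 7 of 67 in mutant pup 4 and 11 of 162 endothelial-type cells in WT pup 2. For Scx alone the share was 12.3% to 15.9% of thinned members and 0% to 0.866% of thinned macrophage-type cells. Markers of other lineages were read as shares of the members' UMIs: the 7 macrophage markers summed to 0.000373% to 0.00130% of UMIs, the 7 endothelial markers to 0.000635% to 0.00261% and the 10 skeletal muscle markers to 0.000276% to 0.000804%. Osteoblast markers (0.00844% to 0.0163%), pericyte and smooth muscle markers (0.0119% to 0.0289%) and erythroid markers (0.0194% to 0.123%) made up more. Among the members, 24 also met the limits of osteoblast-type cells (at least 3 Ibsp UMIs) and 27 those of endothelial-type cells (Pecam1 and Cdh5). Chondrocyte markers summed to 0.213% to 0.324% of members' UMIs, against 0.256% to 1.08% in macrophage-type cells and 5.31% to 5.71% in chondrocyte-type cells. The sum hides markers that went the other way. Acan (775 to 1122 CPM in members, 236 to 892 CPM in macrophage-type cells) and Sox9 (322 to 545 and 70.8 to 383 CPM) were higher in members in every pup. Members without any Col2a1 UMI were 0.201% to 3.02% of a pup's members. The labels call all cells chondrocytes, and by the summed markers the members went against that label. The Col2a1 limit of the rule had already taken out cells rich in that gene.

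The 250 bases before the RefSeq start of Tnmd and of Mstn and Chodl, next after Kera among the genes highest above perichondrial-type cells (described next), are shown because Scx binds E-boxes, spelled CANNTG, which read the same on both strands. Capitals mark each CANNTG match, and the windows are chrX:133850758-133851007, chr1:53061390-53061639 and chr16:78930698-78930947 on the plus strand of GRCm38.p6.
Tnmd: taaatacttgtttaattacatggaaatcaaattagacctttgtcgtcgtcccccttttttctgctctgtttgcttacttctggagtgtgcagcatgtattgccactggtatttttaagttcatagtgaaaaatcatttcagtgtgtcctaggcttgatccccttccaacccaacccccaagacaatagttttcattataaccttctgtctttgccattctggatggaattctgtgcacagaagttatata
Mstn: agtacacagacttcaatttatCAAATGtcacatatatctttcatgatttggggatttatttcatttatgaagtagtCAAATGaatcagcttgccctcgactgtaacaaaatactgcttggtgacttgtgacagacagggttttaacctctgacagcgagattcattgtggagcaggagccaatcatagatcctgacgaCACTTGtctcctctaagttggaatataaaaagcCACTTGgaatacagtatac
Chodl: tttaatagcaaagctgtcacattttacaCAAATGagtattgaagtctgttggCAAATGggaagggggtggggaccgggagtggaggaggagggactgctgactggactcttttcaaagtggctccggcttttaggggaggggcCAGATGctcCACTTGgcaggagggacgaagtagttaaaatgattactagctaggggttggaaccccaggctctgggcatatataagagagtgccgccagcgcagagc
The Tnmd window held 0 matches and the Mstn and Chodl windows 4 each, the most among the named genes. The window of Kera, the gene that stood highest, held 0 matches and is not printed because all of it lies inside the gene as GENCODE annotates it. The Tnmd window also runs into the annotated gene, which starts at 133850980, with its last bases. Of the 10 genes named as higher, 8 had a window and 5 of these held a match, while 66.2% of all 32851 mouse windows of this length did, with a median of 1 match. The matches are letters in a window and were not tested as sites.

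Against perichondrial-type cells of the same pups, members had more Scx, Mkx and Col1a2 transcripts and more of 24 of 27 collagen folding and processing genes, and fewer of 12 of 15 sheath and fibroblast-progenitor genes. The comparison group was 6178 cells that met the same Col1a1, Col2a1, Prg4 and Ptprc limits, had no Tnmd or Ibsp UMI and had Postn (at least 3 UMIs) and Prrx1, a median of 5060 to 7552 UMIs per cell. UMIs were summed per pup and group, and edgeR's quasi-likelihood test was fitted with the pup as a block. Of 13296 genes, 2070 were higher (15.6%) and 1780 lower (13.4%) in members at an adjusted p under 0.05. Called or not, 2805 of the 13296 were higher and 2084 lower in members in every pup. How many of all genes did not overlap between the groups was not counted, so non-overlap of a named gene is a description. The level given for each gene is its CPM after TMM scaling, which sets the median gene near no change. With scaling by total UMIs instead, the median gene fell by 0.26 on the log2 scale and the calls became 738 higher and 6892 lower, so each direction below is relative to the median gene, and a positive log2 value under about 0.26 turned negative on that scale.

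Kera had the largest rise by the rule for named genes. It stood at 818, 833, 600, 1443 and 540 CPM in members and 60.2, 53.5, 54.7, 77.4 and 41.9 CPM in perichondrial-type cells of pups 1 to 5, a log2 fold change of 3.81 (SE 0.11, adjusted p 2.06e-06). The groups did not overlap. Mstn (chromosome 1, 53061640 to 53068079, plus strand), the TGF-beta family ligand myostatin best known for limiting muscle growth, stood at 21.5, 24.7, 22.4, 14.6 and 17.9 CPM against 2.60, 1.53, 1.43, 3.55 and 2.21 CPM, a log2 fold change of 3.34 (SE 0.25). The naming rule required it to be higher in all 5 pups. The skeletal muscle markers made up at most 0.00117% of UMIs in either group, and the part of muscle transcripts in the Mstn values was not tested. The other genes named as higher were Chodl, a membrane lectin (log2 2.98), Chst5, a sulfotransferase (2.63), C1qtnf3, a secreted C1q-related protein (2.33), Nnat (2.32), the secreted semaphorin Sema3b (2.26), Ntng1 (2.23), Angptl7 (2.11) and the microfibril protein Mfap4 (2.01). The naming rule required all of them to be higher in 5 of 5 pups.

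Of 13 tendon transcription factors tested, 5 were higher and 2 lower, with a median log2 fold change of 0.07 (all genes -0.0028). Scx stood at 50.6, 66.1, 61.9, 77.2 and 62.8 CPM in members and 21.3, 15.7, 16.8, 13.4 and 24.6 CPM in perichondrial-type cells, a log2 fold change of 1.80 (SE 0.19, adjusted p 0.00134). Mkx stood at 104, 88.3, 81.1, 141 and 109 CPM against 38.1, 19.1, 22.6, 38.7 and 34.4 CPM (log2 1.79, SE 0.10). Neither factor overlapped between the groups. Six2 (log2 1.66), Eya2 (0.60) and Nfix (0.24) were the other 3 that were higher, and Foxp1 (-0.36) and Tbx15 (-0.50) were lower. Egr1, an immediate early gene that also acts in tendon, had a log2 fold change of -0.46 and did not pass the test. With total-UMI scaling the list's median was -0.19, with 4 genes higher and 6 lower, and the 13 genes together made up less of the UMIs of members (0.373% to 0.557%) than of perichondrial-type cells (0.523% to 0.738%).

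Of 20 collagen genes outside the rule, 12 were higher and 3 lower (median log2 0.44), against 8 and 6 with total-UMI scaling. Col1a2, the second chain of type I collagen, stood at 88181, 77761, 80550, 118140 and 97795 CPM in members and 46935, 35151, 40297, 47388 and 45254 CPM in perichondrial-type cells, a log2 fold change of 1.08 (SE 0.05, adjusted p 2.47e-07). The groups did not overlap. Col11a1, which takes part in starting fibrils (log2 1.03), and the fibril-associated Col12a1 (0.82) and Col14a1 (0.57) were higher. Col5a3 (-2.62), the basement membrane chain Col4a1 (-0.56) and Col3a1 (-0.36) were lower.

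The machinery that folds and trims collagen rose widely relative to the median gene. Of 27 such genes 24 were higher and 2 lower (median 0.39), and with total-UMI scaling 13 were higher and 2 lower. Creb3l1, a transcription factor of collagen secretion, had a log2 fold change of 0.94, the prolyl hydroxylase subunit P4ha1 0.77, the lysyl hydroxylase Plod1 0.60 and the collagen chaperone Serpinh1 (HSP47) 0.36. The exceptions were P4ha2 (-0.41) and Adamts14 (-0.54).

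Matrix genes outside the collagens split. Of 14 small leucine-rich proteoglycans, 7 were higher and 3 lower (median 0.41): besides Kera, Chad (1.44), Fmod (1.34) and Ogn (0.83) were higher, while Podnl1 (-1.66), Lum (-1.09) and Prelp (-0.70) were lower. Fmod was 4368 to 5242 CPM in members and 1339 to 2731 CPM in perichondrial-type cells. Of 19 matrix glycoproteins, 8 were higher and 6 lower (median 0.14, and -0.12 with total-UMI scaling). Cilp2 (1.55), Thbs4 (1.35, SE 0.17) and Sparc (0.84) were among the higher and Tnxb (-2.51) and Igfbp5 (-0.66) among the lower. Of 22 elastic fibre and lysyl oxidase genes, 9 were higher and 7 lower (median 0.15, and -0.11 with total-UMI scaling). Mfap4 and Lox (0.95), the enzyme that crosslinks collagen and elastin, were higher, and Emilin2 (-2.58), Mfap5 (-2.41) and Loxl1 (-0.97) were lower.

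Of 15 genes of tendon sheath, paratenon and fibroblast progenitors, 12 were lower and none was higher (median -1.49, and -1.75 with total-UMI scaling). Ly6a (Sca-1) stood at 6.24, 10.2, 15.5, 7.42 and 5.48 CPM in members and 91.2, 169, 178, 108 and 122 CPM in perichondrial-type cells, a log2 fold change of -3.90 (SE 0.10, adjusted p 4.36e-08). Clec3b (-3.18) and Cd34 (-2.64) were lower in the same way. Tppp3, a marker of tendon sheath cells, stood at 41.1, 52.5, 46.2, 29.1 and 30.8 CPM against 119, 138, 127, 76.9 and 95.2 CPM (-1.49). None of these 4 genes overlapped between groups, and the share of all genes without overlap was not counted. The other genes named as lower included Abca8a (-3.94), Cyp1b1 (-3.90), Hsd11b2, which inactivates glucocorticoid (-3.78), the growth factor Fgf10 (-3.33), the Wnt antagonist Sfrp4 (-3.19) and Aldh1a2, which makes retinoic acid (-2.85). Markers of other cell types moved with this comparison: 4 of 7 pericyte and smooth muscle markers (median -0.68), 2 of 5 osteoblast markers (median -1.29) and both skeletal muscle markers tested (median -1.03) were lower, and none of the 3 lists had a gene that was higher. Of 3 macrophage markers 1 was higher (median 0.46), and of 7 endothelial markers 1 was higher and 1 lower (median 0.61). Of 3 Schwann markers 1 was lower (median -0.31), and none of 5 erythroid markers was called (median 0.44). Pericyte and smooth muscle markers summed to 0.0119% to 0.0289% of members' UMIs and 0.0180% to 0.0304% of those of perichondrial-type cells, and osteoblast markers to 0.00844% to 0.0163% and 0.0104% to 0.0434%. Their part in the other calls was not tested.

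Signalling genes moved in both directions. Of 35 TGF-beta and BMP genes, 14 were higher and 5 lower (median 0.23, and -0.04 with 8 higher and 15 lower on total-UMI scaling). After Mstn, the BMP antagonist Grem1 (1.48) and the activin subunit Inhba (0.93) were higher, and Gdf10 (-1.27), Fst (-1.09) and Bmp7 (-1.03) lower. Of 20 FGF genes, 4 were higher and 6 lower (median -0.04), against 2 and 13 with total-UMI scaling: Fgf9 rose by a log2 fold change of 1.90 and Fgf10 and the feedback phosphatase Dusp6 (-0.42) were lower. Of 24 hedgehog and Wnt genes, 3 were higher and 11 lower (median -0.29), against 3 and 17 with total-UMI scaling. Sfrp1 (-1.28), the hedgehog-binding Hhip (-0.92) and Wnt5a (-0.36) were lower, and Wif1 (1.32), Frzb (0.82) and Dkk3 (0.56), all secreted Wnt antagonists or their relatives, were higher. Of 24 integrin and cell contact genes, 8 were higher, led by Itga2 (1.71), a subunit of a collagen-binding integrin, and 5 were lower, led by Itgb3 (-2.51), while with total-UMI scaling 3 were higher and 12 lower.

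Of 23 mechanosensitive channel and calcium-NFAT genes, 11 were higher and 4 lower (median 0.13, and -0.13 with 5 higher and 10 lower on total-UMI scaling). Piezo2, a stretch-activated channel, stood at 82.6, 98.6, 95.8, 143 and 77.8 CPM in members and 24.2, 40.0, 39.3, 30.4 and 28.6 CPM in perichondrial-type cells, a log2 fold change of 1.57 (SE 0.14, adjusted p 0.000443). The groups did not overlap. Piezo1 (0.38), Nfatc2 (0.63) and Ccn2 (0.84) were higher, and Rcan2 (-1.54) was lower. Of 12 chondrocyte markers 8 were higher, among them Col11a2 (1.89), Acan (0.68) and Sox9 (0.26), and none was lower (median 0.32). With total-UMI scaling 4 were higher and 3 lower. Of 19 cell cycle genes only Mcm6 was called (-0.31), whereas 9 were lower with total-UMI scaling. Of 21 dissociation and stress genes 2 were higher and 5 lower, against 0 and 11 with total-UMI scaling.

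**Figure D2:**
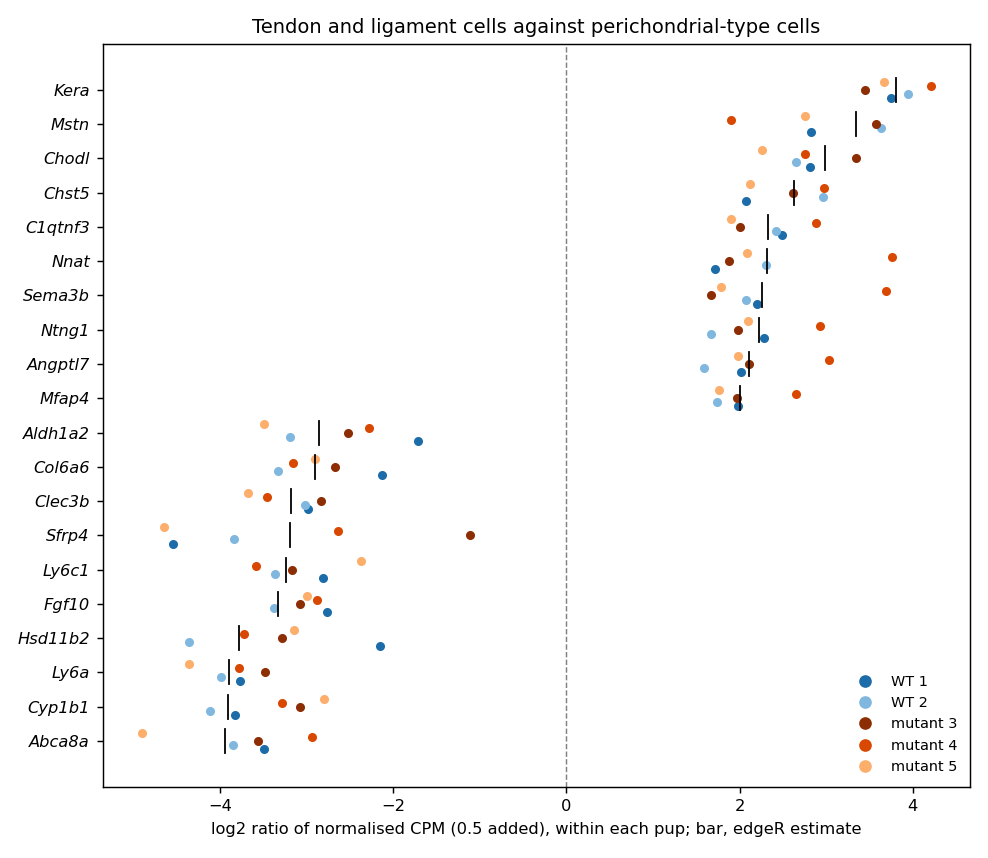
Log2 ratio of normalised CPM (0.5 added to each) between tendon and ligament cells and perichondrial-type cells for the 10 genes named as higher and the 10 named as lower, with 1 point per pup and a bar at the edgeR estimate. Every point lies on its gene's side of 0, as the naming rule required. The estimates run from Kera at 3.81 to Abca8a at -3.94.

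Cells with high Prg4, the gene for the joint lubricant lubricin, and low Col2a1 were the other comparison group: 711 cells, 91 to 210 per pup, with a median of 3727 to 5734 UMIs and so shallower than members. Members had more Scx, Mkx, Fgf9, elastic fibre and matrix protease transcripts, and fewer chondrocyte markers and FGF genes. Of 11015 genes, 1801 were higher (16.4%) and 1750 lower (15.9%), against 942 and 3970 with total-UMI scaling, which put the median gene at -0.295. Called or not, 2673 of the 11015 were higher and 1549 lower in members in every pup. Non-overlap was not counted over all genes here either. These are the same member cells as in the comparison above, so the results are not independent.

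Kera stood at 852, 873, 620, 1494 and 572 CPM in members and 7.75, 6.07, 7.47, 1.99 and 18.0 CPM in Prg4-high cells, a log2 fold change of 6.62 (SE 0.28, adjusted p 3.73e-06). C1qtnf3 stood at 921, 919, 1021, 1510 and 636 CPM against 9.30, 16.9, 33.6, 25.9 and 19.6 CPM (log2 5.42). Neither overlapped. Scx (2.69), Mkx (2.56) and Eya2 (2.75) were among the 9 of 13 tendon transcription factors that were higher, with 3 lower. In the other direction, Cytl1, a secreted cytokine-like protein of cartilage, stood at 11.1, 14.9, 14.1, 11.1 and 14.0 CPM in members and 468, 750, 830, 646 and 860 CPM in Prg4-high cells (-5.81, SE 0.09). Msmp (-6.35), Bpifb1 (-5.58), Stc1 (-5.26), Tesc (-5.16), Vit (-4.86) and Bmp7 (-4.29) were also named as lower.

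Of 21 elastic fibre and lysyl oxidase genes, 14 were higher and 4 lower (median 0.83), against 12 and 7 with total-UMI scaling. The higher ones included Mfap4 (5.06), Lox (3.08) and Eln (2.18). Of 17 matrix proteases and inhibitors, 13 were higher and 3 lower (median 1.10), with Mmp13 at 4.58 and Mmp3, at -2.62, among the lower. Of 35 TGF-beta and BMP genes, 16 were higher and 8 lower, and with total-UMI scaling 10 were higher and 11 lower. The BMP antagonists Chrdl1 (3.12) and Grem1 (1.63) and the activin inhibitor Fstl3 (2.16) were higher. Of 12 chondrocyte markers 7 were lower and none was higher (median -0.95), and of 19 FGF genes 12 were lower and 4 higher. Of 21 dissociation and stress genes 18 were higher and none lower (median 1.04), and of 19 cell cycle genes 8 were higher (0.66). In thinned cells the share with Mki67 or Top2a was lower in members in both WT pups and higher in the 3 mutant pups (values below). Of 6 perichondrial markers 5 were higher and none lower (median 0.81). With Postn and Prrx1, which were left out of those 6, they summed to 0.339% to 0.491% of members' UMIs. In Prg4-high cells that sum was 0.157% to 0.188%. Of 4 pericyte and smooth muscle markers 2 were higher, among them Acta2 (3.46), and 1 was lower, while the list summed to 0.0119% to 0.0289% and 0.0393% to 0.0584%. Of 4 osteoblast markers none was called, but 3 were higher once cells that were also osteoblast- or endothelial-type were left out (median 0.33 and 2.05). The stress genes and these markers therefore moved together with this comparison, and their part in the other calls was not tested.

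The 4 hemoglobin genes were higher in members by log2 4.23 to 4.91. Their UMIs sat in few cells: 4 to 26 members per pup with at least 10 of them held 93.5% to 96.7% of the members' hemoglobin UMIs. The share of cells with any hemoglobin UMI was 3.81% to 28.6% of members and 4.63% to 29.2% of Prg4-high cells.

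Members were also compared with each other by their level of Tnmd, a gene of the rule. In each pup they were split at the median Tnmd per UMI within bins of UMI count, which gave Tnmd-high and Tnmd-low members of nearly the same depth (median 6030 to 8317 and 5974 to 8379 UMIs). Tnmd was 3295 to 5327 CPM in the former and 975 to 1393 CPM in the latter by construction. Tnmd-high members had more Kera, Scx, Mkx, Thbs4 and Dcn, and Tnmd-low members had more Alpl, Sp7, Ptch1, Gli1 and Fgfr2 and more of 10 of 12 chondrocyte markers. Of 12612 genes, 1247 were higher (9.89%) and 1092 lower (8.66%) in Tnmd-high members by edgeR. With total-UMI scaling the calls were 754 higher and 3026 lower (median gene -0.131). Called or not, 1878 of the 12612 were higher and 1557 lower in Tnmd-high members in every pup. Non-overlap was again not counted over all genes.

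Kera stood at 1352, 1386, 948, 2248 and 846 CPM in Tnmd-high and 190, 201, 175, 497 and 171 CPM in Tnmd-low members, a log2 fold change of 2.50 (SE 0.13, adjusted p 0.000258). The groups did not overlap. Mstn (2.18), Chst5 (2.10), Enc1 (2.03), Chodl (2.02), C1qtnf3 (1.99), the calcium channel subunit Cacna2d2 (1.91), Itga2 (1.90), Prss35 (1.89) and Insc (1.88) were the other genes named as higher. The naming rule required each to be higher in 5 of 5 pups. These are again the cells of the comparisons above, so the results are not independent of them.

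Scx stood at 65.0, 85.2, 79.4, 93.0 and 73.8 CPM in Tnmd-high and 28.7, 38.2, 34.4, 49.99 and 42.2 CPM in Tnmd-low members, a log2 fold change of 1.05 (SE 0.06, adjusted p 1.19e-08). Mkx was 102 to 182 CPM against 47.4 to 81.1 CPM (1.00), and Thbs4 was 1504 to 1770 CPM against 599 to 804 CPM (1.29). None of the 3 overlapped. Of 13 tendon transcription factors 5 were higher (Scx, Mkx, Six2, Eya2 and Nfix) and 2 lower (Klf4 and Tbx15), with a median of -0.06 over the list, and with total-UMI scaling 4 were higher and 5 lower. Dcn (1.11), Postn (1.02), Igfbp6 (1.26), Cilp (1.31), Mfap4 (1.44), and the BMP antagonist Chrdl1 (1.44) were also higher. Piezo2 was higher too (1.09), but its call was lost without WT pup 1 (adjusted p 0.0598). Collagen folding and processing genes were higher in 15 of 27 and lower in none (median 0.20), and with total-UMI scaling 9 were higher and 1 lower.

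Alpl, the alkaline phosphatase of mineralizing cells, stood at 4.64, 11.8, 9.91, 4.16 and 10.8 CPM in Tnmd-high and 32.2, 117, 85.7, 59.4 and 57.3 CPM in Tnmd-low members, a log2 fold change of -3.17 (SE 0.15, adjusted p 4.08e-06). The osteoblast factor Sp7 (-2.46) and osteopontin, Spp1 (-2.27), were lower with it, so 3 of the 4 osteoblast markers tested were lower. Pericyte and smooth muscle markers were lower in 3 of 6 (median -0.87) and macrophage markers in 1 of 3 (median -0.80), with none higher in either list, and their part in the other calls was not tested. Of the 51 members that were also osteoblast- or endothelial-type, 37 were Tnmd-low, and without them 3 of 4 osteoblast markers and 3 of 6 pericyte and smooth muscle markers were again lower, with Alpl at -3.24. Mmp13, a collagenase of hypertrophic cartilage and bone, had a log2 fold change of -3.11 (adjusted p 0.0227), and this call was lost under 6 alternatives (adjusted p 0.053 to 0.11), among them leaving out WT pup 2 or any 1 mutant pup. Pi15 (-2.62), Ccdc3 (-2.36), Gpx3 (-1.91), Megf6 (-1.87), Spon1 (-1.79) and Npnt (-1.71) were also lower.

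Of 24 hedgehog and Wnt genes 12 were lower and 1, Dkk3, was higher (median -0.80). The hedgehog receptor and target Ptch1 stood at 30.7, 21.2, 29.9, 23.4 and 34.9 CPM in Tnmd-high and 47.2, 55.5, 60.4, 56.1 and 63.1 CPM in Tnmd-low members (-1.04, SE 0.10), and Gli1 at 19.3 to 26.2 CPM against 30.1 to 40.0 CPM (-0.73). Neither overlapped. Sfrp1 (-1.53), Hhip (-1.29) and Wnt5a (-0.96) were lower as well. Of 20 FGF genes 10 were lower, with Fgfr2 at -1.09, Fgfrl1 at -0.83 and Etv5 at -0.66, and 3 were higher, namely Fgf9 (1.25), Spry1 (0.47) and Spry2 (0.34).

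Of 12 chondrocyte markers 10 were lower in Tnmd-high members, among them Cnmd (-0.96), Col9a1 (-0.91), Hapln1 (-0.82) and Sox9 (-0.29), and Col11a2 was higher (1.29). Of 19 cell cycle genes 5 were lower, led by Ccnb1 (-0.66), and none was higher (median -0.35). Sheath and progenitor genes were lower in 5 of 14, and Dpp4 (1.93) was higher.

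**Figure D3:**
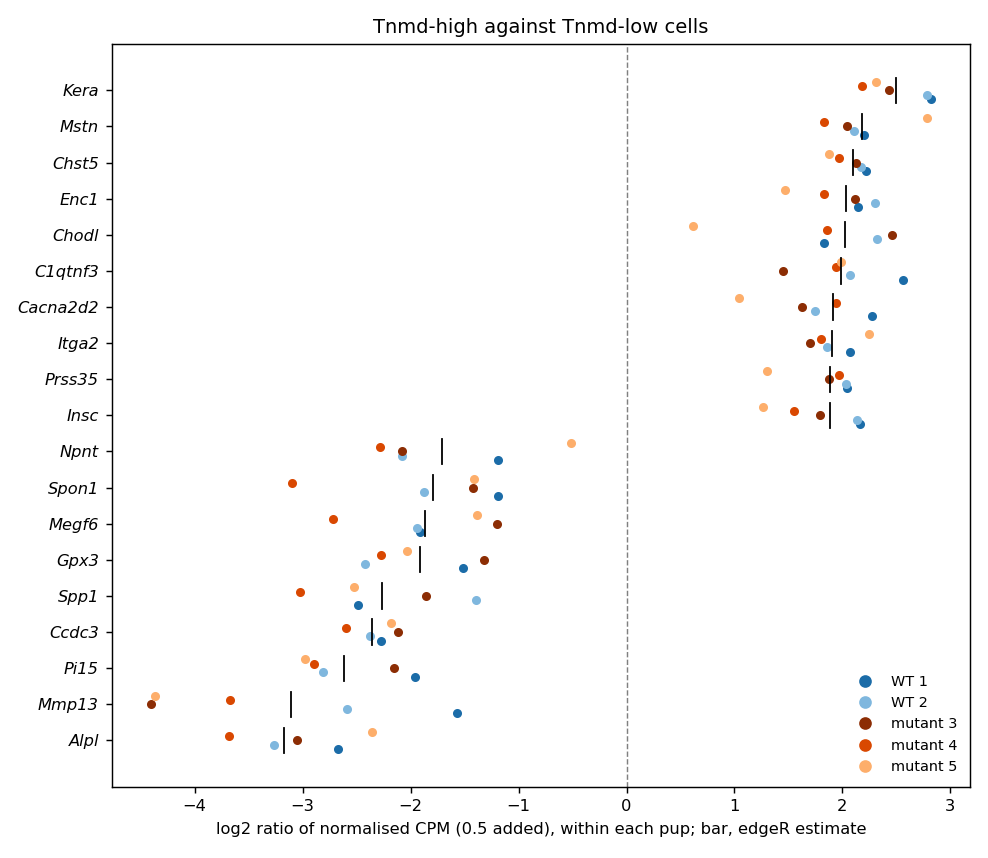
Log2 ratio of normalised CPM (0.5 added to each) between Tnmd-high and Tnmd-low tendon and ligament cells for the genes given above in each direction, with 1 point per pup and a bar at the edgeR estimate. All points lie on their gene's side of 0, as the naming rule required. Kera is at 2.50 and Alpl at -3.17 by the estimate.

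**Figure D4:**
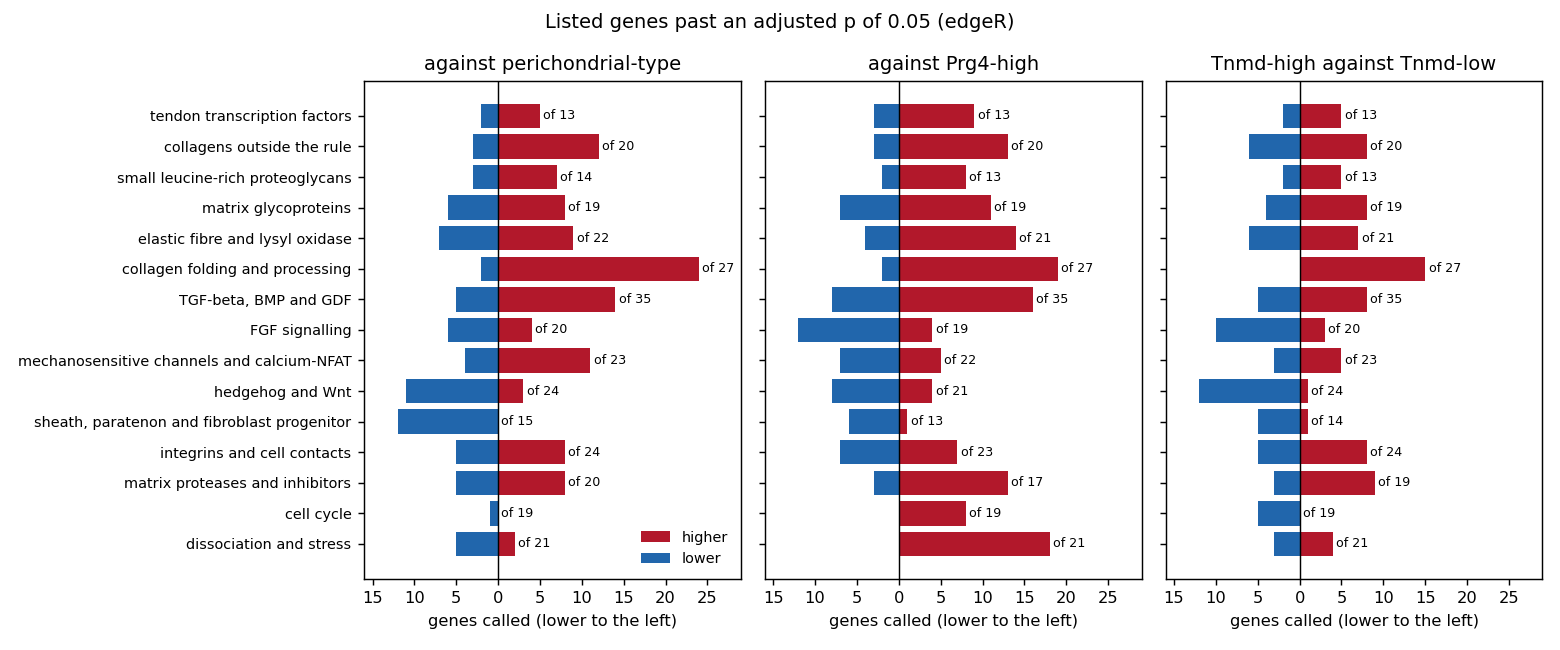
Number of genes called higher (right) or lower (left) in 15 gene lists for the 3 comparisons of cell groups, with the number tested written beside each bar. Collagen folding and processing had 24, 19 and 15 of 27 genes higher, and the sheath and progenitor list had 12 of 15 lower against perichondrial-type cells.

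Cells were also split by whether a thinned member held a UMI of 1 gene, and the summed CPM of other genes was read in both sets as a description without a test. Members with Scx (161 to 543 per pup) had 97.3 to 145 CPM of Mkx against 73.8 to 103 CPM in members without it. Mkx, Kera, Thbs4 and Fgf9 were higher with Scx in 5 of 5 pups, and Sox9 was lower in 5 of 5. The rise was not particular to these genes, since Postn, Fmod, Tnmd and Cilp were also higher with Scx in 5 of 5. Tppp3 was higher in 4 of 5 pups, and Col14a1, Comp and Gli1 were lower in 4 of 5. The share over all genes was not counted. Members with Kera had 22.8 to 24.8 CPM of Gli1 against 34.1 to 45.6 CPM without it, lower in 5 of 5 pups.

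Members with Cilp, a cartilage intermediate layer protein, were few, 64 to 344 per pup. They had 2300 to 2557 CPM of Thbs4 against 1044 to 1154 CPM in members without Cilp, and also more Postn, Kera and Tnmd in 5 of 5 pups. Split by Kera instead, the direction was the other way. Cilp was lower in members with Kera in 5 of 5 pups (29.2 to 120 CPM against 69.8 to 201 CPM). The share of cells with a UMI did not follow these levels in every pup. A Cilp UMI was seen in more of the members with Kera in WT pups 1 and 2 and mutant pup 4. A Kera UMI was seen in fewer of the members with Cilp in mutant pups 3 and 5. In members with Cilp, Fmod, at 2359 to 3724 CPM against 4267 to 4711 CPM without Cilp, was lower in 5 of 5 pups. Comp and Sox9 were also lower with Cilp in 5 of 5. A Thbs4 UMI went with more Tppp3 in 5 of 5 pups (28.1 to 61.2 CPM against 10.6 to 19.6 CPM).

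Proliferation was read as the share of thinned cells with a UMI of Mki67 or Top2a. It was 15.3%, 12.3%, 12.8%, 12.7% and 9.57% in the members of pups 1 to 5 and 14.8%, 11.96%, 13.8%, 15.4% and 14.3% in perichondrial-type cells. The mean difference of -1.50 percentage points gave p = 0.25 (2-sided exact sign-flip permutation test, smallest possible 0.0625). Its sign split by genotype: members were higher by 0.419 and 0.327 points in the WT pups and lower in the 3 mutant pups, at -0.923, -2.65 and -4.70 points. The difference between genotypes, -3.13 points, gave p = 0.2 (2-sided exact permutation test over 10 groupings, smallest possible 0.1). The split depended on the comparison group. Prg4-high cells stood at 16.5%, 12.8%, 10.7%, 10.8% and 7.61%, so members were lower than these in both WT pups and higher in the 3 mutant pups. The Prg4-high shares rest on only 15, 25, 21, 9 and 7 cells with such a UMI in pups 1 to 5, and this difference was not tested. Against chondrocyte-type cells the difference between genotypes was -0.212 points (p = 0.8 by the same permutation test). Mutant members differed from WT members by -2.07 points (2-sided exact permutation test, p = 0.6).

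Trpv4, the targeted gene (chromosome 5, 114622152 to 114658421, minus strand), encodes a calcium-permeable channel, and the counts do not separate its mutant and WT transcripts. It stood at 19.97, 6.90, 7.35, 10.2 and 15.4 CPM in the members of pups 1 to 5, at 233, 159, 158, 231 and 225 CPM in chondrocyte-type cells and at 36.8, 39.9, 15.6, 26.8 and 45.1 CPM in macrophage-type cells. Members were lower than chondrocyte-type cells by a mean log2 difference of -4.18 in 5 of 5 pups, and lower than macrophage-type cells by -1.49 in 5 of 5 (2-sided exact sign-flip permutation tests, p = 0.0625 each, the smallest that 5 pups can give). A Trpv4 UMI was seen in 4.56% to 12.6% of members and in 11.4% to 23.1% of macrophage-type cells. The level in members lay below that of the macrophage-type cells of the same pup in all 5 pups, and it is not read as expression. Perichondrial-type cells stood at 9.95 to 22.0 CPM, and the mean log2 difference of members minus perichondrial-type cells was -0.29, with members higher in 1 of 5 pups (p = 0.188 by the same exact test).

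The question of the study was what the mutant channel changes, and the members gave no difference between genotypes that passed the test. They made up 16.5% and 12.5% of the cells of the WT pups and 15.2%, 19.96% and 7.72% of the cells of the mutant pups. The means were 14.5% ± 2.81 (SD, n = 2) and 14.3% ± 6.17 (SD, n = 3), and the difference of -0.169 percentage points gave p = 1 (2-sided exact permutation test over 10 groupings, smallest possible 0.1). Both the highest and the lowest share belonged to mutant pups. The median Tnmd level of a member was 2545 and 2287 CPM in WT pups and 1992, 2562 and 1744 CPM in mutant pups. Tnmd chose the members, so this is a description. Cells at the limit of 3 UMIs had a median of 4.69 and 4.01 Tnmd UMIs per 10000 in WT pups. In mutant pups the limit lay at 5.24, 6.26 and 5.63 per 10000.

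Of 14458 genes tested between mutant and WT members by edgeR, 0 were higher (0.0%) and 0 lower (0.0%), with 774 at an unadjusted p under 0.05. DESeq2 called 3. The values of every mutant pup were above those of both WT pups in 1778 genes (12.3%) and below them in 1628 (11.3%). Scx stood at 45.6 and 59.6 CPM in WT and 55.8, 70.8 and 57.9 CPM in mutant members, a log2 fold change of 0.21 (SE 0.15). Kera stood at 736 and 752 CPM in WT and 542, 1324 and 497 CPM in mutant members (0.06, SE 0.49). The WT values lay within the mutant range for Kera. Mkx (0.20, SE 0.23) and Thbs4 (0.07, SE 0.11) likewise did not pass the test.

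Over the 15 lists, the share of genes above WT in every mutant pup exceeded the 12.3% over all genes in 9 lists and was smaller in 6, and none of these genes passed the test. It was 11 of 36 for TGF-beta and BMP genes (1 below WT in every mutant pup), 6 of 24 for integrins and cell contacts (3 below), 5 of 20 for FGF genes, 5 of 21 for dissociation and stress genes (1 below), 5 of 22 for elastic fibre genes, 5 of 23 for mechanosensitive channel genes, 4 of 20 for matrix proteases, 4 of 24 for hedgehog and Wnt genes and 2 of 13 for tendon transcription factors. It was 3 of 27 for collagen folding, 2 of 19 for matrix glycoproteins and 1 of 20 for collagens (1 below), and no gene of the small leucine-rich proteoglycan, sheath and cell cycle lists was above WT in this way, while 3 of 19 cell cycle genes and 3 of 7 endothelial markers were below. The part of the stress genes in the other values was not tested. Tgfb2 stood at 298 and 299 CPM in WT and 386, 426 and 369 CPM in mutant members (log2 0.38, SE 0.10, adjusted p 0.865 by edgeR). Eln stood at 529 and 713 CPM in WT and 1410, 1709 and 879 CPM in mutant members (1.08, SE 0.30). Crabp2, a retinoic acid binding protein, stood at 19.5 and 29.8 CPM in WT and 50.8, 35.5 and 38.9 CPM in mutant members (0.75, SE 0.23, adjusted p 0.865). Nell2, a secreted glycoprotein, stood at 3.43 and 3.53 CPM in WT and 7.73, 10.3 and 8.75 CPM in mutant members (1.34, SE 0.18, adjusted p 0.865), and it was called by DESeq2 (adjusted p 0.00255). Tgfb2, Eln, Crabp2 and Nell2 were singled out after their values were seen. The values of the 5 genes drawn for each pup overlapped between the genotypes.

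**Figure D5:**
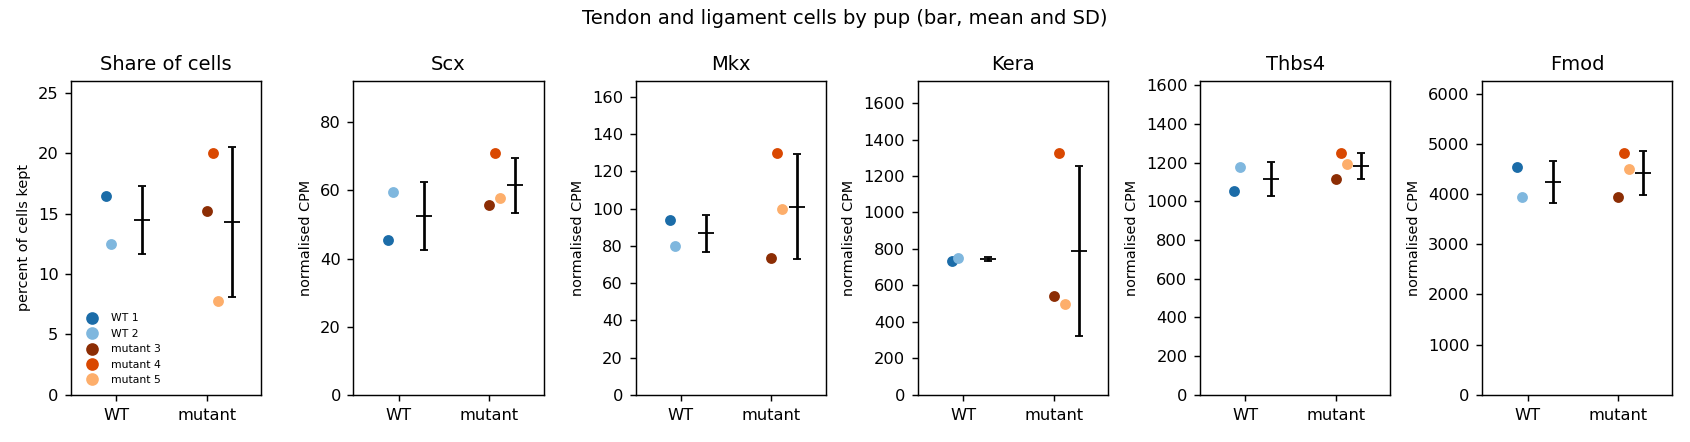
Share of cells that were tendon and ligament cells, and normalised CPM of Scx, Mkx, Kera, Thbs4 and Fmod in them, by pup and genotype (points), with the mean and SD beside them (n = 2 WT and 3 mutant). The ranges of the WT and mutant pups overlap in every panel.

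Whether the mutant differed from WT to a different extent in members and in perichondrial-type cells was tested with an interaction term. Of 14277 genes, 1 was called higher by edgeR (0.007%) and none lower, and DESeq2 called 0. That gene was Mcpt4, a mast cell protease, with a log2 difference of 5.45 (adjusted p 0.0244). It stood at 0.0952 and 1.32 CPM in WT and 21.2, 0.0530 and 0.805 CPM in mutant members, and in mutant pup 3 a single cell held 397 of its 403 UMIs. Without mutant pup 3 its adjusted p was 1.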

How the data were processed

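The authors dissected and digested the growth plates, captured cells with the BD Rhapsody HT Express system, and deposited raw UMI counts of genes by cells, 1 matrix a pup, on build mm10 per the labels. Members and gene lists were chosen with earlier results of these data known.

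Cells were filtered and assigned to groups by the limits given with each group. No doublet caller was run: the limit of 6000 genes stood in, with an alternative that drops cells above 2 times the median UMIs. UMI counts were summed per pup and group over 29818 genes and tested with edgeR 4.0.16 (limma 3.58.1, R 4.3.3): TMM factors, filterByExpr, robust quasi-likelihood fits and Benjamini-Hochberg adjustment over all genes tested, at 0.05. Group comparisons within pups had the pup as a block, since the pairing comes from the same animal. Genotype was compared over 2 WT and 3 mutant pups, separate littermates. Single values were compared with exact permutation tests. DESeq2 1.42.0 was an alternative. Tables and figures were made with Python 3.11.15.

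Genes were named by rule: per direction, the 10 largest changes among called genes that moved the same way in all 5 pups, with at least 20 mean CPM in the higher group, rule genes left out. Some genes picked by this rule are not reported here. Listed genes are named from 20 mean CPM in either group. Lower ones are named where a count of 5 or fewer is spelled out, after their values were seen. The fits were tested on simulated data in which 200 genes of at least 20 mean CPM changed together by 1 log2 unit. They recovered 200 (perichondrial-type, 13296 genes), 198 (Tnmd-high, 12612 genes) and 194 (genotype, 14458 genes), with 7.83%, 9.17% and 8.92% of calls false. Changes in genes with lower counts, and data in which fewer genes change, were not simulated. These counts therefore do not give the power of the genotype test.

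Positions are from the GENCODE annotation of GRCm38. Reads were not used, and 0 columns belonged to another series.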

Additional observations from a re-analysis of the deposited data

Results flagged for a closer look

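1 result differed between 2 cell groups under the same contrast: the mutant effect on Mcpt4 was larger in tendon and ligament cells than in perichondrial-type cells by 5.45 on the log2 scale (edgeR interaction term, adjusted p 0.0244). DESeq2 gave an adjusted p of 0.558, and 397 of the 403 UMIs in mutant pup 3 came from 1 cell. Why that cell holds them was not tested.

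The share of cells with Mki67 or Top2a stands here because members were above perichondrial-type cells in both WT pups and below them in all 3 mutant pups. The within-pup difference in mutant pups minus that in WT pups was -3.13 percentage points, which did not pass the test (2-sided exact permutation test, p = 0.2, smallest possible 0.1). Against Prg4-high cells the signs were the other way in all pups, but the Prg4-high shares rest on 7 to 25 cells per pup and were not tested. Against chondrocyte-type cells the genotype difference was -0.212 points (2-sided exact permutation test, p = 0.8).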

How the results depend on the processing

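Against perichondrial-type cells and between Tnmd-high and Tnmd-low members, counts of genes called moved most with the scaling, the test and the block. In the former (3850 called), total-UMI scaling, chosen after seeing the data, gave 7630, DESeq2 2508 and the fit with no replicate block 2193. In the latter (2339 called) the same settings gave 3780, 1406 and 800. Each fit without the block ignores that both groups come from the same pup. The comparison with Prg4-high cells (3551 called) stayed within 1.5 times under all its alternatives, from 2764 to 4912.

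Mutant against WT (0 called) gave 3 by DESeq2, 73 with no low-count filter and 0 to 5 when 1 pup was left out (5 without WT pup 2 and 5 without mutant pup 5). The interaction (1 called) gave 0 by DESeq2, 34 with no filter and 0 to 5 when 1 pup was left out (5 without WT pup 1). Without mutant pups 3 and 4 only 1 mutant pup was left, and each fit without a WT pup had 1 WT pup left. Such fits cannot show how stable the counts are. The difference in the share of cells, -0.169 percentage points, became 2.03 with a mitochondrial limit of 5% and -0.336 with a limit of 20%. It was 0.332 with at least 2 Tnmd UMIs, -0.915 with at least 5 and 0.693 with at least 3 Tnmd UMIs per 10000. Thinning gave 0.0458, and leaving out 1 pup -3.00 to 3.12. As a share of the Col1a1-rich, Col2a1-poor population the difference was -4.03. Without mutant pups 3 and 4, with 1 mutant pup left, it was -6.75. The log2 genotype difference changed sign for Kera (-0.0808 with total-UMI scaling, -0.525 to 0.298 with 1 pup left out, -0.58 without mutant pups 3 and 4), Thbs4 (-0.0505 with total-UMI scaling, -0.0165 to 0.147 with 1 pup left out) and Mkx (-0.018 to 0.385). The cause was not tested.

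Leaving out cells that were also osteoblast- or endothelial-type, chosen after seeing the data, moved no count over all genes by over 1.5 times. Of the marker lists, osteoblast markers higher than in Prg4-high cells went from 0 to 3 of 4, and endothelial markers against perichondrial-type cells from 1 higher and 1 lower of 7 to 0 and 2 of 5. Of 749 alternatives for 49 named genes, 727 kept direction and call, 13 lost the call, 3 gained it and the 6 above reversed. Genotype differences smaller than 1 log2 unit were not simulated.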
